A study of Homo sapiens with 6 samples.

Results

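The genes of respiratory complex I, nuclear and mitochondrial, were compared between CD104high and CD104low breast cancer cells. Members were the rows of the deposited table whose symbol begins with NDUFA, NDUFAB, NDUFAF, NDUFB, NDUFC, NDUFS or NDUFV followed by a number, or is a mitochondrial ND gene. This symbol rule took 57 of 15024 genes. They comprised 7 core and 30 accessory nuclear subunits, 8 NDUFAF assembly factors, 7 mitochondrially encoded subunits, 2 NDUFA4 paralogs and 3 antisense or divergent transcripts. A filter on low values left 55 of them for testing, and NDUFA7 and NDUFA4L2 did not pass it.

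All 6 libraries came from the established triple-negative breast cancer line MDA-MB-231, of human origin, and in all 6 the histone methyltransferase gene KMT2C (MLL3) was labelled as null. Every culture had received 10 µM forskolin, which activates adenylyl cyclase and raises cAMP, for 14 days. CD44+CD104high cells (n = 3) and CD44+CD104-/low cells, called CD104low here (n = 3), were then sorted on CD104, the integrin beta-4 protein. Whether the null line is a single clone was not given in the sources used here, and the wild-type cells named in the study design were not analysed here. The labels name no culture, day or batch for a replicate, so the p-values cover only the spread among these 6 libraries.

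Complex I oxidises NADH in the mitochondrial matrix, passes the electrons through a flavin and a chain of iron-sulfur clusters to ubiquinone, and pumps protons across the inner membrane. Its catalytic core is encoded by nuclear genes for the matrix arm and by mitochondrial DNA for the membrane arm. Accessory subunits, all nuclear, surround that core, and assembly factors help to build the complex without staying in the finished enzyme.

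Between 49791498 and 60069719 reads per library fell on the listed genes. ITGB4, which encodes CD104, was higher in CD104high by 3.30 on the log2 scale, while CD44, shared by both sorts, differed by 0.05. KMT2C, the gene labelled as null, still gave reads, at 3816 ± 221 in CD104high against 2507 ± 371 (SD, n = 3 each). It was higher in CD104high by 0.62 (limma adjusted p = 0.0027), but did not pass with length and GC content corrected (0.30, limma adjusted p = 0.0594). A value for the whole gene cannot check a deletion of part of it. All 6 listed marker genes of MDA-MB-231 were in the table, and the 6 genes listed as usually low or absent in this line were not analysed here. Of 8 leukocyte markers, 4 were in the table, and their summed level was 782 to 1041 in CD104high and 381 to 484 in CD104low. PTPRC, CD3E, CD68 and ITGAM were not analysed here. All 6 fibroblast markers were in the table, summing to 3766 to 4787 and 2039 to 2536, and the 3 of 5 endothelial markers in it summed to 69.6 to 111 and 55.3 to 99.9. The nuclear RNAs MALAT1 and NEAT1 rose in CD104high, by 0.85 and 0.995. The leukocyte and fibroblast sums, MALAT1 and NEAT1 moved with the populations, and their part in the results was not tested. In sorted bulk samples, fewer cells with a transcript and less of it per cell cannot be told apart.

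Promoter sequences are shown for 3 members that differ in their response. NDUFAF4 had the largest fall of all members, NDUFB4 is a subunit that fell and holds motifs of the respiratory regulator NRF1, and NDUFAF3 encodes the binding partner of NDUFAF4 and did not pass the test. The fall of NDUFB4 did not hold with transcript length and GC content corrected (-0.008, limma adjusted p = 0.917), while that of NDUFAF4 did (-1.05). The sequences are from RefSeq on GRCh38.p14, 5′ to 3′ on the strand of the gene, and stop before annotated exon sequence. They cover chr6:96897892-96898141 on the minus strand for NDUFAF4, chr3:120596086-120596308 on the plus strand for NDUFB4 and chr3:49020235-49020451 on the plus strand for NDUFAF3. Capitals mark matches to the ETS core CCGGAAG in NDUFAF4 and to the NRF1 motifs GCGCATGC or GCGCNTGC, on either strand, in NDUFB4.
NDUFAF4: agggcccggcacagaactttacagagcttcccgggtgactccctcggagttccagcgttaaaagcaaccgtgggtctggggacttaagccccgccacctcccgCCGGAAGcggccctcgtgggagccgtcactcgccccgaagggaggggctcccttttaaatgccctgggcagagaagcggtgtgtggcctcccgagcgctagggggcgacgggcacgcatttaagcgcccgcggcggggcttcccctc
NDUFB4: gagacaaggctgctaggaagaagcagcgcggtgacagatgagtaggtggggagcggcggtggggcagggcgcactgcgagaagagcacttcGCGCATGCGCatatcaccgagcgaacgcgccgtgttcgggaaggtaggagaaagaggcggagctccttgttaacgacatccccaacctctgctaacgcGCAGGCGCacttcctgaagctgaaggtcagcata
NDUFAF3: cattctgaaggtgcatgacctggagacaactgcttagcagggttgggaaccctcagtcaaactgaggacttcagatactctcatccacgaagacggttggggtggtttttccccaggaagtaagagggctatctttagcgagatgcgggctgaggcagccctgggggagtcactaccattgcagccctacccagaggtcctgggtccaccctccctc
The ETS match of NDUFAF4 begins 147 bases before the annotated start. In NDUFB4 the 2 overlapping GCGCATGC matches, 1 on each strand, make up a palindrome that begins 159 bases before the start. The NDUFAF3 stretch holds no match to the motifs searched, which says only that these letters are not in it.

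Of 45 nuclear subunits and assembly factors, 39 matched a RefSeq promoter of 250 bases before to 50 bases after the start. Only 36 of these 39 windows held the start of a GENCODE transcript of the gene on its strand. The NDUFA5 window lies outside the GENCODE span of that gene, so the counts below include windows that may not be the promoter in use. Those without a match included NDUFAF6, NDUFS5, NDUFC2, NDUFB5 and NDUFB9. GCGCATGC, searched on both strands, occurred in 7 of the 39 windows (17.9%), against 3.05% of all 35116 RefSeq promoters. Those 35116 were not limited to the genes tested here, and a share over the tested genes alone was not taken. The 7 genes were NDUFA6, NDUFA8, NDUFAF4, NDUFAF5, NDUFB4, NDUFS6 and NDUFS7. In NDUFAF4 this match lies 6 bases after the start, outside the stretch shown. By response, it occurred in 6 of 18 members that fell and in 1 of 20 that did not pass, NDUFA8. Of those 6, NDUFB4 and NDUFS7 did not pass with length and GC content corrected. The looser GCGCNTGC, which contains every GCGCATGC match, occurred in 12 of 39 windows against 11.7% of all promoters, in 8 of 18 that fell and 4 of 20 that did not pass. The ETS core occurred in 6 of 39 windows against 10.3%, in 3 of 18 that fell and 3 of 20 that did not pass. The YY1 core AAGATGGC occurred in 6 of 39 against 2.89%, in 3 of 18 and 2 of 20. These are counts of letters and not of bound factors.

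In the fit by group alone, complex I transcripts were lower in CD104high cells or did not pass the test, and none rose. With transcript length and GC content corrected, 18 members fell and 5 rose, against 21.4% and 19.5% of all genes. With replicate number as a block, ND6 rose (limma adjusted p = 0.0132). With limma, 23 of 55 tested members fell and 0 rose, where 21.6% of all 14420 genes tested fell and 21.8% rose. The median difference, CD104high minus CD104low in log2(value + 1), was -0.21 over the members and 0.02 over all genes. In 27 members every CD104high library lay below every CD104low library, an arrangement found in 26.9% of all genes, and in 0 members every CD104high library lay above, against 27.4% of all genes. In the authors' deposited table, by its own adjusted p-values, 25 members were lower and 0 higher, against 22.6% and 23.1% of all genes with an adjusted p-value there. The 2 additional members in that table were NDUFA1 and NDUFB2.

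Medians and counts by class are given as a description, and no test compared the classes. Assembly factors had a median of -0.58, with 5 of 8 falling. Nuclear subunits had a median of -0.26, with 16 of 36 falling. Mitochondrially encoded subunits had a median of -0.06, with 1 of 7 falling (14.3%, against 21.6% of all genes). As a share of all signal in a library, the nuclear subunits together averaged 0.206% ± 0.00774 (CD104high, SD, n = 3) against 0.251% ± 0.0151 (CD104low, SD, n = 3). The populations did not overlap, and the exact two-sided permutation test gave p = 0.1, the smallest p that 3 against 3 allows. The share of the assembly factors was 0.0183% ± 0.00167 and 0.0287% ± 0.00274 (SD, n = 3 each), also without overlap (exact permutation p = 0.1). The mitochondrially encoded subunits made up 0.888% ± 0.0803 and 0.927% ± 0.114 (SD, n = 3 each), with overlap (exact permutation p = 0.6).

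**Figure D1:**
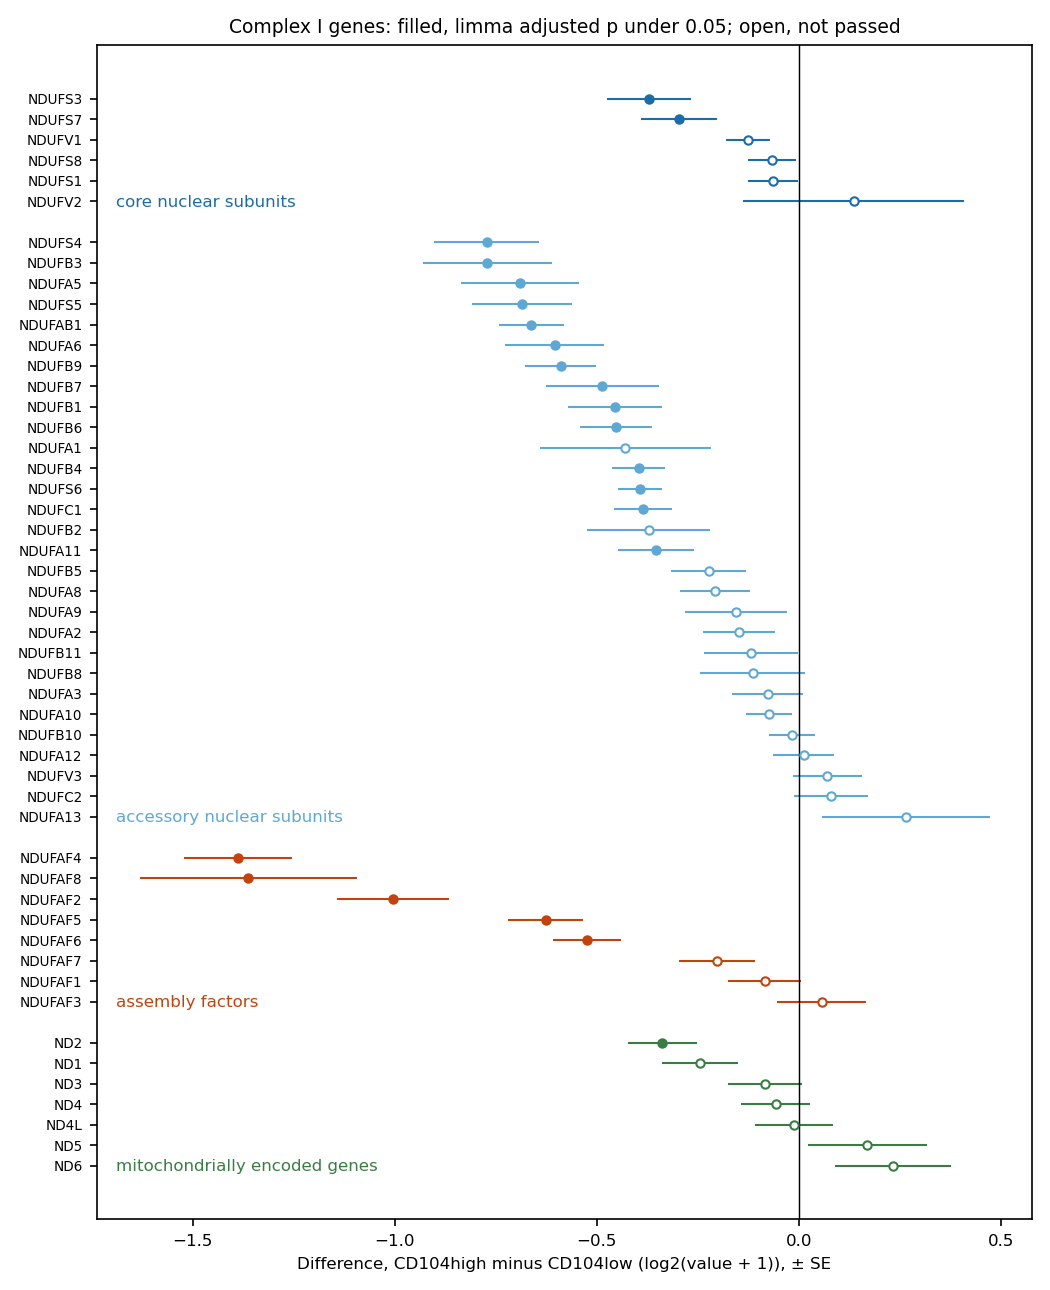
Difference between CD104high and CD104low for tested complex I subunits and NDUFAF assembly factors, on the x axis in log2(value + 1) units with its standard error, grouped by class, with filled points for genes past the limma threshold. NDUFAF4, NDUFAF8 and NDUFAF2 lie farthest to the left, at -1.39, -1.36 and -1.004, and no filled point lies to the right of 0.

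Among the assembly factors, NDUFAF4 (GRCh38 chromosome 6, 96889313 to 96897881) acts with NDUFAF3 early in building the ubiquinone-reducing part of the complex. Its scaled read counts were 639.8, 653 and 722 in replicates 1 to 3 of CD104high and 2022, 1421 and 1886 in CD104low. All 3 CD104high libraries lay far below CD104low, in which replicate 2 was the lowest. NDUFAF4 fell 2.62-fold on the log2(value + 1) scale (-1.39, SE 0.13, limma adjusted p = 0.00029). Its partner NDUFAF3 (chromosome 3, 49020459 to 49023495) read 2722, 2440.2 and 3079 in CD104high and 2613, 2347 and 2964 in CD104low. These populations overlapped, and the difference of 0.06 (SE 0.11) did not pass (limma adjusted p = 0.706). The ratio of NDUFAF4 to NDUFAF3 counts within a library, which is not per length and is compared only between libraries, was 0.235, 0.268 and 0.234 in CD104high and 0.774, 0.605 and 0.636 in CD104low. The ratio did not overlap between populations (exact permutation p = 0.1, the smallest possible). It restates the values of both genes and is not separate evidence.

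NDUFAF8 (chromosome 17, 81239239 to 81241281) encodes a small protein that stabilises NDUFAF5, an enzyme that hydroxylates the core subunit NDUFS7. NDUFAF8 read 979, 1508 and 2383 in CD104high and 4212, 3357 and 4241 in CD104low, so it varied most within CD104high, and the populations did not overlap. It fell 2.57-fold (-1.36, SE 0.27, limma adjusted p = 0.00426). NDUFAF5 (chromosome 20, 13784950 to 13821582) read 664, 667 and 717 in CD104high and 1085, 976 and 1105 in CD104low. It fell by 0.63 on the log2 scale (SE 0.09, limma adjusted p = 0.0012), without overlap.

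NDUFAF2 (chromosome 5, 60945129 to 61153037) is a paralog of the subunit NDUFA12 and occupies its place on late assembly intermediates. NDUFAF2 read 1503, 1487 and 1640.5 in CD104high and 3647, 2431 and 3342 in CD104low, and fell 2.01-fold (-1.004, SE 0.14, limma adjusted p = 0.000939). NDUFA12 read 4996, 5497 and 5519.6 in CD104high and 5363, 4875 and 5654 in CD104low. The NDUFA12 populations overlapped, and its difference of 0.01 did not pass (limma adjusted p = 0.911). The ratio of NDUFAF2 to NDUFA12 within a library was 0.301, 0.271 and 0.297 in CD104high and 0.680, 0.499 and 0.591 in CD104low, without overlap (exact permutation p = 0.1). This ratio too restates the values of both genes.

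NDUFAF6 on chromosome 8, needed at an early assembly step, read 1215, 1311 and 1209 in CD104high and 1931, 1669 and 1775 in CD104low. It fell by 0.52 (SE 0.08, limma adjusted p = 0.00171), and the populations did not overlap. NDUFAF7, a methyltransferase of early assembly, read 568, 532 and 531 in CD104high and 632, 609 and 637 in CD104low. It did not overlap either, but its difference of -0.20 did not pass (limma adjusted p = 0.113). NDUFAF1, of the membrane assembly complex MCIA, read 749, 735 and 739 in CD104high and 808, 818 and 734 in CD104low. Replicate 3 of CD104low lay below all CD104high libraries there, and the difference of -0.08 did not pass (limma adjusted p = 0.477).

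**Figure D2:**
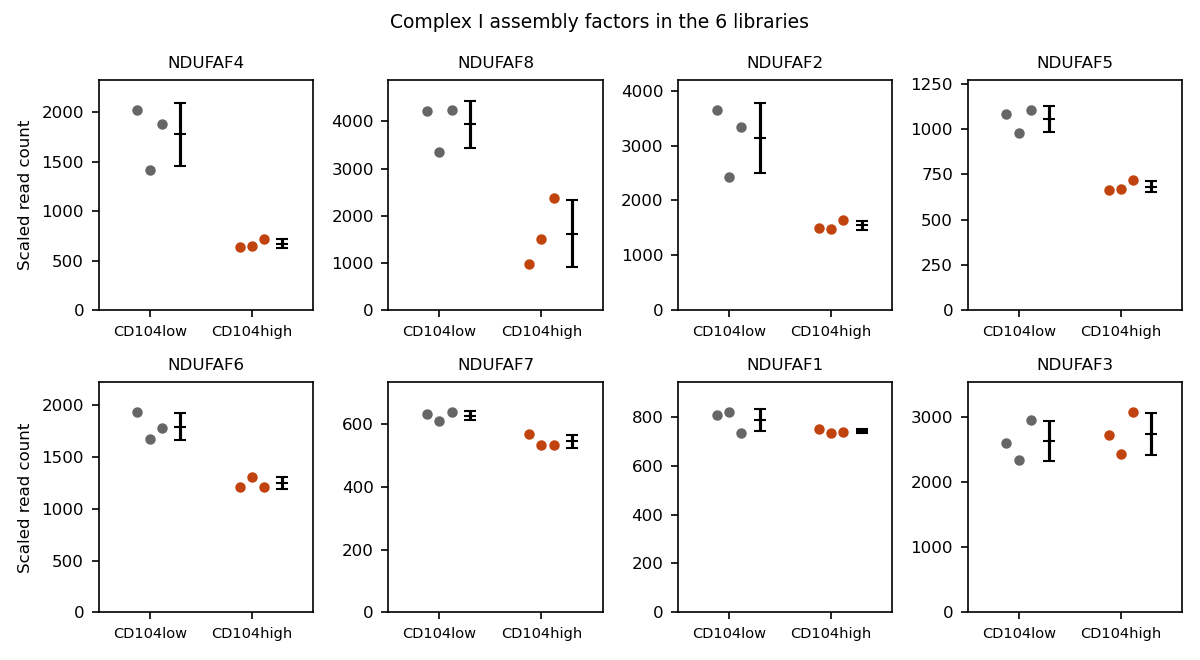
Scaled read count (y axis, from 0) of each of the 8 NDUFAF assembly factors in the 3 CD104low (grey) and 3 CD104high (red) libraries, in replicate order from left to right, with mean and SD beside them. NDUFAF4, NDUFAF8, NDUFAF2, NDUFAF5, NDUFAF6 and NDUFAF7 show no overlap between populations, while NDUFAF1 and NDUFAF3 overlap.

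Assembly factors outside the NDUFAF names also fell in part. Of 12 such genes 6 fell and 0 rose, with a median of -0.19, where 21.6% of all genes fell and 21.8% rose. With length and GC content corrected, 4 of the 12 fell, 0 rose and the median was -0.16. TMEM126A, a factor for the membrane arm subunit ND4, averaged 1463 ± 64.6 in CD104high against 2787 ± 443 in CD104low (SD, n = 3 each; difference -0.92, limma adjusted p = 0.000656). ECSIT, a partner of NDUFAF1 in the MCIA complex, fell by 0.46 (limma adjusted p = 0.00138). The other falls were in TMEM126B (-0.67), DMAC1 (-0.66), TMEM70 (-0.58) and DMAC2 (-0.18), named to complete the count. TMEM126B and DMAC1 did not pass with the correction (limma adjusted p = 0.117 and 0.0773). ACAD9, an acyl-CoA dehydrogenase of the same complex, was at 0.13, and NUBPL, which delivers iron-sulfur clusters to complex I, at 0.04, and neither passed.

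The core nuclear subunits carry the redox centres, and 2 of 7 (28.6%) fell, near the 21.6% of all genes. They were NDUFS3 and NDUFS7, of the part that reduces ubiquinone. With length and GC content corrected, 0 of 4 core members of that part fell, where 21.4% of all genes did. Of 3 in the NADH-oxidising part 2 fell with it, NDUFV1 and NDUFS1. NDUFS1 moved from -0.06 to -0.25, at an annotated transcript length of 11819 bases. NDUFS3 (chromosome 11, 47565336 to 47584562), a scaffold of the ubiquinone-reducing part, read 3086, 2868 and 3672 in CD104high and 4313, 3726 and 4376 in CD104low. The populations did not overlap, although replicate 3 of CD104high came close to replicate 2 of CD104low. NDUFS3 fell by 0.37 (SE 0.10, limma adjusted p = 0.02). NDUFS7, which holds the last iron-sulfur cluster before ubiquinone, read 629.7, 594 and 609 in CD104high and 799.5, 714 and 739 in CD104low. It did not overlap and fell by 0.30 (SE 0.09, limma adjusted p = 0.0322). Both calls ended when single libraries were left out, with adjusted p of 0.0657 to 0.079 for NDUFS3 without replicate 1 or 2 of CD104high or replicate 1 or 3 of CD104low, and of 0.0574 to 0.122 for NDUFS7 without any library but replicate 2 of CD104low.

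No other core member of that part passed. NDUFS8, a ferredoxin-like subunit, read 7712, 7427 and 7881 in CD104high and 8291, 7639.5 and 8179 in CD104low, with overlap and a difference of -0.07 (limma adjusted p = 0.404).

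None of the 3 core members that oxidise NADH passed. NDUFV1, which binds NADH and the flavin, read 9559.7, 9277 and 9205 in CD104high and 10259, 10391 and 9934 in CD104low. It did not overlap, at -0.13 (limma adjusted p = 0.0931). NDUFS1, which carries several iron-sulfur clusters, read 5511, 5743 and 5229 in CD104high and 5924, 5654 and 5641 in CD104low, with overlap (-0.06, limma adjusted p = 0.435). NDUFV2, which holds an iron-sulfur cluster beside the flavin, was low in every library, at 114, 83.0 and 61.8 in CD104high and 85.5, 85.9 and 59.5 in CD104low. NDUFV2 overlapped fully and its difference of 0.14 had a standard error of 0.27 (limma adjusted p = 0.715).

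Accessory subunits gave most of the falls, with 14 of 29 tested falling, 0 rising and a median of -0.37. Over all genes tested, 21.6% fell and 21.8% rose. With length and GC content corrected, 10 of the 29 fell, 2 rose and the median was -0.16. NDUFAB1 (chromosome 16, 23581002 to 23596356), the mitochondrial acyl carrier protein, read 2730.4, 2791 and 3006 in CD104high and 4743, 4062 and 4711 in CD104low. The populations lay well apart, and NDUFAB1 fell 1.58-fold (-0.66, SE 0.08, limma adjusted p = 0.000574). NDUFS6 (chromosome 5, 1801400 to 1816605), a zinc-binding subunit of the NADH-oxidising part, read 4811, 4770.1 and 4737 in CD104high and 6411, 6228 and 6162 in CD104low. Its replicates lay close together in each population, and it fell by 0.39 (SE 0.06, limma adjusted p = 0.000996). NDUFB9 on chromosome 8, of the distal membrane arm, read 1074, 942 and 1030.1 in CD104high and 1594, 1426 and 1559.9 in CD104low. It did not overlap and fell by 0.59 (SE 0.09, limma adjusted p = 0.00127).

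NDUFS4 (chromosome 5, 53560633 to 53683340), which helps to hold the NADH-oxidising part to the rest, had the largest fall among the subunits. It read 3645, 3693 and 4306 in CD104high and 7718, 5363 and 6986 in CD104low, without overlap, and fell 1.71-fold (-0.77, SE 0.13, limma adjusted p = 0.00212). The ratio of NDUFS4 to the core subunit NDUFS1, compared between libraries only, was 0.661, 0.643 and 0.824 in CD104high and 1.303, 0.948 and 1.24 in CD104low (exact permutation p = 0.1). Like the ratios above, it is not separate from the values of its genes. NDUFB3 of the distal membrane arm, at -0.77, read 2225, 2351 and 2948 in CD104high and 4774, 3308 and 4858 in CD104low. It too had no overlap, with replicate 2 the lowest of CD104low.

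The other falls among accessory subunits were in NDUFA5 (-0.69), NDUFS5 (-0.68), a subunit on the intermembrane side, NDUFA6 (-0.60), which binds the acyl carrier protein, NDUFB7 (-0.49), NDUFB1 (-0.45), NDUFB6 (-0.45), NDUFB4 (-0.40), NDUFC1 (-0.39) and NDUFA11 (-0.35). NDUFB7 was the only nuclear subunit called with overlapping populations. Its call ended without replicate 1 or 2 of CD104high and without replicate 1 or 3 of CD104low (adjusted p of 0.0702 to 0.091). The calls of NDUFA11 and NDUFB1 ended without replicate 1 of CD104low (adjusted p = 0.0601 and 0.0614). NDUFA1 (-0.43, limma adjusted p = 0.131) and NDUFB2 (-0.37, limma adjusted p = 0.0783) did not pass here, but did in the authors' deposited table (adjusted p = 0.0453 and 0.0368).

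The remaining 13 tested accessory subunits had differences from -0.22 in NDUFB5 to 0.26 in NDUFA13, a subunit also known as GRIM-19. NDUFA13 read 244, 249.8 and 162 in CD104high and 183, 205 and 152 in CD104low, with overlap (limma adjusted p = 0.333). NDUFC2 read 835, 839 and 938 in CD104high and 829.7, 785 and 856 in CD104low, at 0.08. NDUFV3 read 2115, 1965 and 2234 in CD104high and 2146, 1843 and 2026 in CD104low, at 0.07. Both overlapped and neither passed. By position, 6 of 11 distal membrane arm subunits of the NDUFB series fell, with a median of -0.40 and all 11 differences negative, where 21.6% of all genes fell. Once length and GC content were corrected for, 3 of the 11 fell, 1 rose and the median was -0.11.

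**Figure D3:**
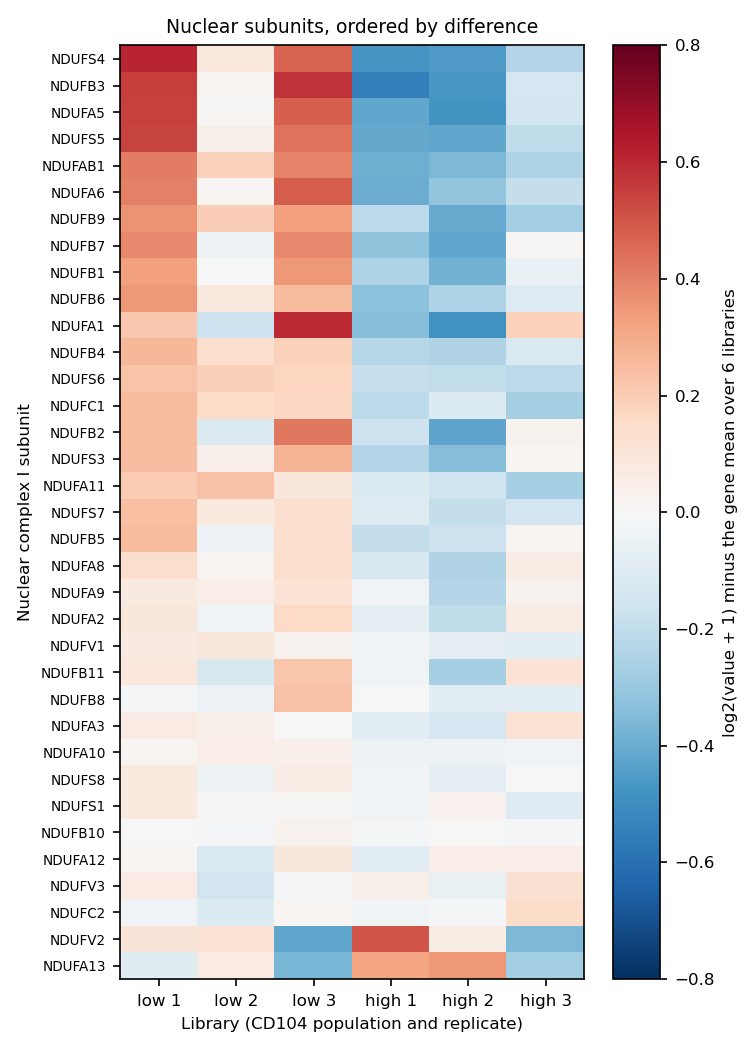
Log2(value + 1) of tested nuclear subunits minus each gene's mean over the 6 libraries, with subunits ordered by difference from the lowest at the top and libraries in columns. The upper rows are high in CD104low and low in CD104high, most in replicates 1 and 3 of CD104low, while the rows near the bottom show no common order.

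Most nuclear subunits shared an order of replicates within a population. Replicate 2 was the lowest CD104low library in 27 of 36 nuclear subunits (75%) and in 7 of 8 assembly factors, against 43% of all genes tested. Replicate 3 was the highest CD104high library in 24 of 36 (66.7%), against 43.8% of all genes. These are the libraries in which the 2 populations came nearest to each other. Members share these libraries, so the counts are a description.

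NDUFA4, named for complex I but now counted as a subunit of complex IV, read 4817, 4573 and 6450.4 in CD104high and 10074, 6376 and 9894 in CD104low. Replicate 3 of CD104high lay just above replicate 2 of CD104low, and NDUFA4 fell by 0.72 (SE 0.19, limma adjusted p = 0.0145). Its call ended without replicate 1 of CD104high (adjusted p = 0.055) or of CD104low (adjusted p = 0.0668). Its paralog NDUFA4L2 was at 5.30 to 14.1 and the subunit NDUFA7 at 6.18 to 11.9 over the 6 libraries, both too low to be tested. The transcripts NDUFA6-DT (-0.10), NDUFB2-AS1 (0.22) and NDUFV2-AS1 (-0.17) did not pass.

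The 7 mitochondrially encoded genes form the proton-pumping membrane core, and only ND2 passed. ND1, the subunit next to the ubiquinone site, read 88618, 83875 and 80084 in CD104high and 96014, 114079 and 90148 in CD104low. ND1 did not overlap, but its difference of -0.24 (SE 0.09) did not pass (limma adjusted p = 0.0656). That depended on the setting. ND1 passed as lower with DESeq2 (adjusted p = 0.0345) and with the replicate block (limma adjusted p = 0.0162). It also passed with quantile normalization and without replicate 3 of CD104low. Once transcript length and GC content were corrected for, its difference was 0.03. ND2, a proton-pumping subunit, read 83095, 78609 and 73577 in CD104high and 101046, 107465 and 89311 in CD104low. ND2 did not overlap and fell by 0.34 (SE 0.09, limma adjusted p = 0.013). Its adjusted p was 0.0552 without replicate 1 of CD104low, and its difference was 0.02 once transcript length and GC content were corrected for.

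The small membrane subunits ND3 and ND4L and the pumping subunit ND4 overlapped between populations. ND3 read 31257, 28946 and 36983 in CD104high and 35532, 32858 and 34113 in CD104low (-0.08, limma adjusted p = 0.487). ND4L read 28928, 24764 and 24964 in CD104high and 25099.8, 29994 and 24326 in CD104low (-0.01, limma adjusted p = 0.934). ND4 read 159182, 144493 and 136349 in CD104high and 145794, 164322 and 147408 in CD104low (-0.06, limma adjusted p = 0.617). ND4 and ND4L overlap on the mitochondrial chromosome and are carried on a shared transcript, so reads of their common bases can count for either.

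ND5 and ND6 stood on the positive side without passing. ND5, the most distal pump, read 99573, 90827 and 72210.1 in CD104high and 73022, 93685 and 67097 in CD104low (0.17, limma adjusted p = 0.381). ND6, the complex I gene annotated on the minus strand, read 22274, 20899 and 16167 in CD104high and 16579.6, 19689 and 14170.2 in CD104low (0.23, limma adjusted p = 0.216). In both genes the order of replicates was alike, and the populations overlapped. The ratio of ND6 to ND5 counts was 0.224, 0.230 and 0.224 in CD104high and 0.227, 0.210 and 0.211 in CD104low, with overlap (exact permutation p = 0.3). Strand use in the counting was not given in the sources used here. Reads near the boundary that ND5 and ND6 share, on opposite strands, may therefore not be told apart.

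Ratios between ND genes were also compared. The ratio of ND2 to ND4 counts was 0.522, 0.544 and 0.540 in CD104high and 0.693, 0.654 and 0.606 in CD104low, without overlap (exact permutation p = 0.1). ND2 was the only ND gene called, so this ratio is not separate from its call. The ratio of ND4L to ND4 was 0.182, 0.171 and 0.183 in CD104high and 0.172, 0.183 and 0.165 in CD104low, with overlap (exact permutation p = 0.6). None of the 6 other mitochondrially encoded mRNAs passed, while 4 of them passed as higher with length and GC content corrected (MT-CO2 0.54, MT-CO3 0.42, MT-ATP6 0.41 and MT-ATP8 0.59). With that correction 19.5% of all genes rose, and every mitochondrially encoded mRNA moved up. Uncorrected, MT-CO2 (COX2) was at 0.19 (adjusted p = 0.0385 in the authors' deposited table), MT-CO3 (COX3) at 0.10 and MT-CYB (CYTB) at -0.04. Within the mitochondrially encoded mRNAs, the ND genes made up 35.2%, 35.4% and 33.3% in CD104high and 37.9%, 37.4% and 35.7% in CD104low, again without overlap (exact permutation p = 0.1). The whole mitochondrially encoded mRNA share was 2.56% ± 0.167 and 2.50% ± 0.272 of the signal (SD, n = 3 each; exact permutation p = 0.7).

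**Figure D4:**
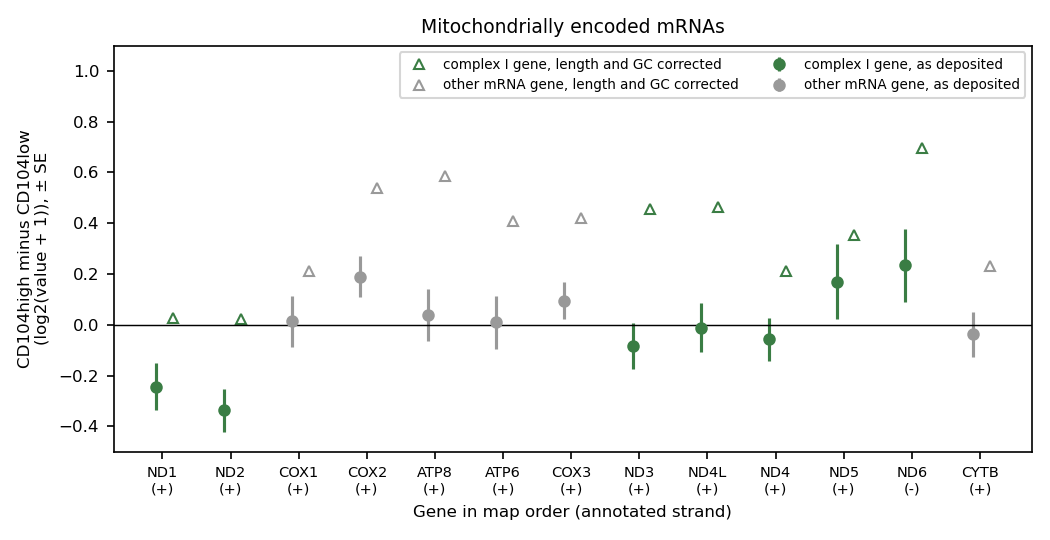
Difference between CD104high and CD104low (y axis, log2(value + 1)) for the mitochondrially encoded mRNAs in map order, complex I genes in green and the others in grey, as circles with standard errors, and as triangles after the length and GC correction. ND1 and ND2 are the lowest circles, ND6 is the highest, and every triangle lies above 0.

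Per kilobase of transcript, the mean level over the 6 libraries ranged among the mitochondrially encoded members from 34851 for ND6 to 108557 for ND4. Among the nuclear subunits it was highest for NDUFS5, at 16002 per kilobase, followed by NDUFB7 (10819) and NDUFS8 (9930). It was lowest among those tested for NDUFA9 (35.3) and NDUFV2 (87.7). The assembly factors ranged from 157 for NDUFAF5 to 4520.1 for NDUFAF8. NDUFA7, NDUFA9, NDUFA11, NDUFA13 and NDUFB8, all low in their deposited values, overlap other protein-coding genes on the same strand in GENCODE, most of them not analysed here, and reads can be shared between such genes. NDUFC2 likewise overlaps its readthrough gene with KCTD14, NDUFS3 overlaps PTPMT1, NDUFC1 overlaps MGARP and NDUFB2 overlaps ADCK2. Levels of these members, and the calls of NDUFS3, NDUFC1 and NDUFA11, are therefore uncertain.

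Transcript length moved with the differences. The nuclear subunits had a median annotated transcript length of 960.5 bases, against 3008.5 for all genes tested. Among all genes with transcripts under 800 bases the median difference was -0.18, and among the 13 subunits of that length it was -0.43, with 8 falling. At 3000 bases and more it was 0.10 over all genes and -0.07 in 4 subunits, with 0 falling. With length and GC content corrected across all genes, 18 members fell and 5 rose, where 21.4% and 19.5% of all genes did. The medians became -0.48 for the assembly factors, -0.16 for the nuclear subunits and 0.35 for the mitochondrially encoded genes.

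The correction changed single calls in both directions. The same 5 assembly factors fell with it, with NDUFAF4 at -1.05 and NDUFAF8 at -1.22. NDUFS3, NDUFS7, NDUFA11, NDUFB1, NDUFB4, NDUFB6, NDUFC1 and ND2 no longer passed. NDUFV1 (-0.21), NDUFS1 (-0.25) and NDUFA10 (-0.20), which had not passed before, passed with it as lower. NDUFA12 (0.38), NDUFB5 (0.18), ND3 (0.46), ND4L (0.46) and ND6 (0.69) passed with it as higher. For mitochondrially encoded genes the correction used the annotated gene length, 297 bases for ND4L and 1378 for ND4, which share a transcript. All mitochondrially encoded mRNAs moved up with it, so their corrected values and class median are uncertain. Whether these rises are a change in RNA level was not tested.

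**Figure D5:**
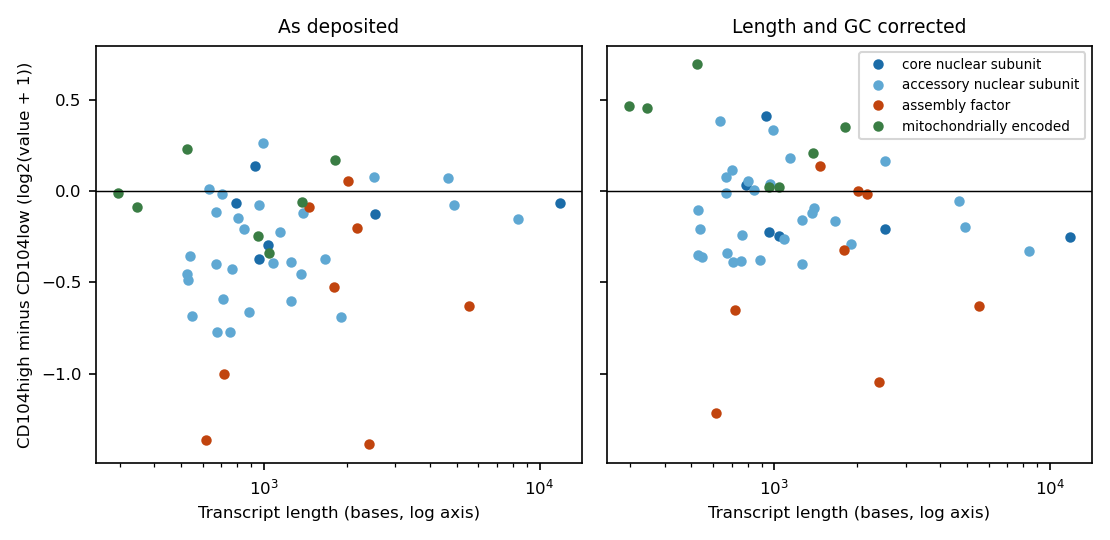
Difference between CD104high and CD104low (y axis, log2(value + 1)) against annotated transcript length (x axis, bases, log axis) for complex I members by class, as deposited on the left and after the length and GC correction on the right. The assembly factors NDUFAF4, NDUFAF8, NDUFAF2 and NDUFAF5 lie below -0.6 in each panel, while the mitochondrially encoded genes move above 0 on the right.

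Genes around complex I were counted from lists. Of 38 nuclear subunits of complexes II to V, 27 fell and 0 rose, with a median of -0.41, where 21.6% of all genes fell and 21.8% rose. With the correction 23 fell, 1 rose and the median was -0.23. UQCRH, the hinge subunit of complex III, averaged 5648 ± 144 in CD104high against 9136 ± 549 in CD104low (SD, n = 3 each; difference -0.69, limma adjusted p = 0.000273). CYC1, the cytochrome c1 of complex III, fell by 0.85 (limma adjusted p = 0.000447). SDHC, a membrane anchor of complex II, was at 0.15 and ATP5PD, of the ATP synthase stalk, at 0.11, and neither passed. SDHC did in the authors' deposited table (adjusted p = 0.0224), and ATP5PD did with the correction (0.50, limma adjusted p = 0.000519).

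Of 17 genes for mitochondrial transcription and mRNA handling, 15 fell and 0 rose, with a median of -0.50, where 21.6% of all genes fell and 21.8% rose. With the correction 13 fell, 0 rose and the median was -0.43. MTERF3, a mitochondrial transcription and ribosome factor, averaged 1051 ± 50.1 in CD104high against 1947 ± 145 in CD104low (SD, n = 3 each; difference -0.89, limma adjusted p = 0.00029). SLIRP, which binds mitochondrial mRNAs together with LRPPRC, fell by 1.06 (limma adjusted p = 0.000436). TFB1M, at 0.01, and MTERF1 were the 2 that did not pass. The transcripts these proteins act on, the ND mRNAs, had the share of signal given above.

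Among 10 regulators of nuclear respiratory genes, 7 fell and 2 rose, where 21.6% and 21.8% of all genes did. MYC fell by 0.67 (limma adjusted p = 0.000449), as did GABPB1, a subunit of the ETS factor GABP, by 0.67 (limma adjusted p = 0.000599). Its DNA-binding partner GABPA was at -0.01 and did not pass. NRF1, which binds the GCGCATGC motif, named here after its value was seen, fell by 0.31 (limma adjusted p = 0.00809). PPARGC1A, the coactivator PGC-1alpha, rose from 56.2 ± 7.99 to 143 ± 55.9 (SD, n = 3 each; 1.27, limma adjusted p = 0.00837), and HIF1A, the hypoxia-inducible factor subunit, rose by 0.61 (limma adjusted p = 0.00035).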

How the data were processed

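RNA of 6 sorted samples was sequenced, with Salmon 1.3.0, FastQC, DESeq2 and the build GRCh38 (hg38) named per the submitters' processing notes. Filters and formula were not given in the sources used here. Deposited values, per the file headers, were a scaled read signal per gene and library, a log2 fold change with its standard error, and a raw and an adjusted p-value. Every deposited signal value was a whole multiple (within 0.01, for 100% of values) of 1 step per library, so whole reads were recovered and used for the count tests. If Salmon made them they are rounded estimates. Their sums, 49791498 to 60069719, cover only the 15024 listed genes.

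Values were tested as log2(value + 1) in R 4.3.3 with limma 3.58.1 and its intensity trend, on genes reaching 10 in 3 or more samples, and p-values were adjusted by Benjamini-Hochberg over 14420 genes at a threshold of 0.05. Such fold changes understate those of low genes. Differences are CD104high minus CD104low, and errors of levels are SD. Shares and ratios were tested by two-sided exact permutation. Alternatives were other pseudocounts, filters and scalings, limma without the trend, edgeR 4.0.16, DESeq2 1.42.0, a loess correction (span 0.3) for transcript length and GC content, a replicate block, and each library left out. On simulated data for this comparison (14420 genes, 200 changed), limma recovered 74% of changes of 0.5 and 100% of changes of 1 on the log2 scale, with 11 false calls. The simulation drew genes independently at a fixed dispersion of 0.01. In the data 43.4% of genes were called and replicates moved many genes together, so these rates need not hold there.

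GENCODE 29 on GRCh38 gave positions, lengths and GC content, matched for 14994 genes (99.8%), and length is that of a principal annotated transcript or else the longest. Replicates differed well beyond sampling noise (chi-square per degree of freedom 13.2 to 46.4). Every member could be named, all 6 values being given for mitochondrially encoded genes, core subunits, NDUFAF genes and the 6 smallest p in each direction, and of each other list the 2 smallest p in each direction were named; further values were chosen after being seen. Members and lists were chosen with earlier results of these data known. The values of 1 member that enters the counts are not reported here, and it is left out of the plots.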

Additional observations from a re-analysis of the deposited data

How the results depend on the processing

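Of the 23 members that fell, 13 kept the call in all 19 alternatives, among them NDUFAF2, NDUFAF4, NDUFAF5, NDUFAF6 and NDUFAF8, and 16 kept it whichever library was left out. The number of members that fell was 16 to 26 with a library left out and 18 under the correction for length and GC. The number that rose, 0 as reported, was 0 to 1 with a library left out, 5 with the correction, 1 with the replicate block and 7 with both together. With the correction alone 21.4% of all genes fell and 19.5% rose. Shares of all genes were not taken with a library left out or with the block. The counts of members under those settings therefore cannot be set against all genes. The median of the nuclear subunits was -0.16 with the correction, alone or with the block, and -0.31 to -0.22 with a library left out. That of the mitochondrially encoded genes was 0.35 with the correction, alone or with the block, and -0.08 to -0.00 with a library left out, and that of the assembly factors -0.63 to -0.54. With the correction, alone or with the block, NDUFB5 was at 0.18, ND2 at 0.021, ND3 at 0.46 and ND4L at 0.46, and ND4 was at 0.21 with both. The cause of these changes was not tested.

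The replicate numbers did not pair the samples by the rule used, since same-numbered samples had correlations of 0.08, 0.36 and 0.32 and the rule asked for more than 0.1 in each, though every sample correlated best with its own number. With the replicate block 28 members fell, and the share of all genes that fell with it was not taken. NDUFA7, NDUFA4L2 and NDUFV2 had few reads in every library, which limits their values, and the reason for their low counts was not tested.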
